A study of Bos taurus with 6 samples.

Results

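The epithelial miRNAs of the extracellular vesicles (EVs) released by bovine oviductal organoids were the miR-200 family, which is encoded in a pair of gene clusters, together with miR-203, miR-205 and miR-375. The 8 members were chosen by name, and 7 of them, bta-miR-200a, bta-miR-200b, bta-miR-200c, bta-miR-141, bta-miR-429, bta-miR-205 and bta-miR-375, had values among the 1028 mature miRNAs of the deposited table. bta-miR-203, known from the skin as a miRNA of differentiating keratinocytes, was not analysed here. Small RNA was sequenced from 3 EV libraries of heat stressed (HS) organoids, moved to 42 °C for the last 24 h of culture, and from 3 EV libraries of thermoneutral organoids, kept at 37 °C. Each library was a pool of 2 animals, with replicates A, B and C at each temperature. Both temperatures drew on a common set of oviducts, but the sources used here do not tie the letters to animals. All organoids were grown from epithelial cells scraped from diestrus oviducts of slaughterhouse cattle. At both temperatures the medium held EGF, FGF-10, Noggin, the TGFβ receptor inhibitor A83-01, the p38 inhibitor SB202190 and the ROCK inhibitor Y27632.

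miR-200 family members are made in most epithelial cells. They repress the transcription factors ZEB1 and ZEB2, which in turn repress the genes of the family and that of E-cadherin, a loop described mainly in human and mouse cells. Loss of the family accompanies the transition of epithelial to mesenchymal cells. miRNAs recognise their targets mainly through the seed, a short stretch at the 5′ end. miR-200b, miR-200c and miR-429 share the same seed, while miR-200a and miR-141 share another that differs from it by a single base. miR-205 is typical of stratified and glandular epithelia and also represses ZEB1 and ZEB2. miR-375 is best known from the endocrine pancreas and from secretory and neuroendocrine epithelia.

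The genes of the members were located by name in RefSeq's list of genes for ARS-UCD2.0, which held all 7. MIR429, MIR200A and MIR200B follow each other with no other entry between them, after TTLL10 and before C16H1orf159. MIR141 and MIR200C are likewise adjacent, overlap the annotated long noncoding RNA LOC112446758 and precede PTPN6. MIR205 lies on the same chromosome as MIR429, 309 entries away, after CAMK1G. MIR375 lies between CRYBA2 and CFAP65 and is a neighbour of no other member. The build behind the deposited table was ARS-UCD1.2, so no coordinates are given.

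Values are TMM-adjusted counts per 1000000 (CPM), made by the authors from reads annotated against miRBase. Every value above 0 was a whole multiple of the smallest one of its library, so the reads behind it were recovered. The libraries held between 31640 and 213877 miRNA reads, and 1 read was worth between 5.53 CPM in replicate B and 28.7 CPM in replicate C, both at 42 °C. bta-miR-1246 took 71.8% of the reads of that replicate C and between 25.0 and 50.0% of the other 5 libraries. Markers of other cell types were also present: the leukocyte list summed to 6256 to 14216 CPM at 42 °C and 2364 to 2712 CPM at 37 °C, and the mesenchymal list to 4094 to 13210 CPM at 42 °C and 2679 to 7347 CPM at 37 °C. The erythroid list summed to 15412 to 174301 CPM at 42 °C and 13912 to 47558 CPM at 37 °C. Of that list, bta-miR-144 stood at only 0, 11.1 and 0 CPM at 42 °C and at 34.0, 29.4 and 0 CPM at 37 °C. The list of multiciliated cells summed to 88.5 to 201 CPM at 42 °C and 102 to 288 CPM at 37 °C, most of it bta-miR-34c, which had reads in every library. Of its 5 miRNAs, bta-miR-449b and bta-miR-449c were at 0 in all 6 libraries. Of the leukocyte list, bta-miR-142-3p stood at only 0, 11.1 and 0 CPM at 42 °C and at 0 in every library at 37 °C. It was not tested. bta-miR-150 stood at 3497, 1981 and 9678 CPM at 42 °C and at 51.0, 11.7 and 59.1 CPM at 37 °C. For bta-miR-142-5p, bta-miR-146b and bta-miR-155 the groups overlapped. Of the 6 leukocyte miRNAs tested, bta-miR-150 was called by limma and rose, where 2.39% of all miRNAs tested were called in either direction. edgeR and DESeq2 each called 2 of the 6, both higher at 42 °C. Over all miRNAs, edgeR called 4.38%, and DESeq2 called 9.19% of those to which it gave an adjusted p. By all 3 tools bta-miR-150, bta-miR-223 and bta-miR-146a had an unadjusted p under 0.05. Such a p was given to 44 of all 251 miRNAs by limma, 42 by edgeR and 36 by DESeq2. Of the 6 mesenchymal miRNAs, the most abundant of which was bta-miR-143, 0 were called by any of the 3 tools, with 0 at an unadjusted p under 0.05 by limma and DESeq2 and 1 by edgeR. bta-miR-143 made up most of the sum of that list in every library. Of the 6, 5 had a log2 fold change above 0, while bta-miR-199a-3p had -0.90 (limma adjusted p = 0.35). The part of these cells and of depth in the results below was not tested. Fewer vesicles from a cell type and less of a miRNA per vesicle cannot be told apart here.

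The leading member of the first cluster was bta-miR-200b, with 12217, 6993 and 8185 CPM in HS replicates A, B and C, against 5731, 9934 and 8467 CPM in thermoneutral replicates A, B and C. It stood between rank 12 and rank 22 of all miRNAs in every library, and the groups overlapped. These values rest on 285 to 1691 reads per library. Its log2 fold change (42 °C over 37 °C) was 0.18 (standard error 0.42, 95% interval -0.74 to 1.10, adjusted p = 0.87, limma). As a fold, that interval runs from 0.599 to 2.14.

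bta-miR-200a, the neighbour of bta-miR-200b with the other seed, stood at 3370, 1898 and 1321 CPM at 42 °C and at 1190, 2356 and 2017 CPM at 37 °C, again in the order of replicates A, B and C. The groups overlapped, and replicate A was the highest library at 42 °C but the lowest at 37 °C. Its log2 fold change was 0.19 (standard error 0.46, 95% interval -0.80 to 1.18, adjusted p = 0.87, limma).

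bta-miR-429, the least abundant member of this cluster, had 286, 271 and 287 CPM at 42 °C and 204, 164 and 266 CPM at 37 °C. All 3 HS libraries lay above all 3 thermoneutral libraries, but the nearest values, replicate B at 42 °C and replicate C at 37 °C, were less than 1 read apart. The reads were 36, 49 and 10 at 42 °C and 12, 28 and 36 at 37 °C. Its log2 fold change was 0.42 (standard error 0.51, 95% interval -0.68 to 1.52, adjusted p = 0.71, limma). Per 1000000 miRNA reads other than bta-miR-1246, it stood at 580, 313 and 488 at 42 °C and at 506, 373 and 510 at 37 °C, and on that scale the groups overlapped.

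The second cluster was led by bta-miR-200c, which shares its seed with bta-miR-200b. It stood at 9872, 3331 and 2929 CPM in HS replicates A, B and C, against 5068, 7126 and 4662 CPM at 37 °C. Replicate A at 42 °C was the highest of the 6 libraries and the other HS libraries were the lowest, so the HS values enclosed those of the thermoneutral libraries. The highest HS value was 3.37 times the lowest, against 1.53 times at 37 °C. Its log2 fold change was -0.27 (standard error 0.49, 95% interval -1.33 to 0.80, adjusted p = 0.82, limma). The group means were 5377 ± 3898 CPM at 42 °C and 5619 ± 1321 CPM at 37 °C (SD, n = 3 each).

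bta-miR-141, the cluster mate of bta-miR-200c, was the member with the widest spread. It had 366, 94.1 and 28.7 CPM at 42 °C and 85.0, 153 and 229 CPM at 37 °C. The HS libraries held the highest and the lowest value, and the lowest, replicate C, was a single read. Reads were 46, 17 and 1 at 42 °C against 5, 26 and 31 at 37 °C. Its log2 fold change was -0.43 (standard error 0.83, 95% interval -2.22 to 1.36, adjusted p = 0.83, limma). As a fold, that interval runs from 0.215 to 2.56, the widest of the family.

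**Figure D1:**
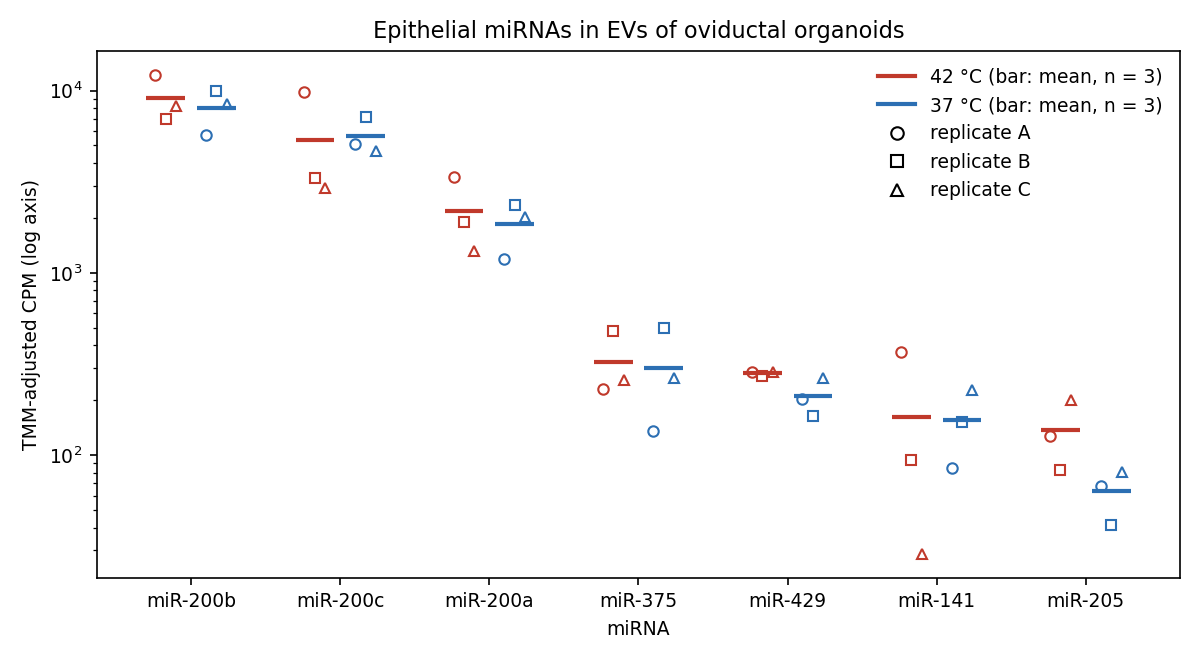
TMM-adjusted CPM (log axis) of the 7 members in each EV library, 42 °C in red left of 37 °C in blue, with replicates A, B and C as circles, squares and triangles and the mean of 3 as a bar. The groups overlap for 5 members, and for bta-miR-429 and bta-miR-205 the HS libraries lie above the thermoneutral ones.

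Of the members outside the family, bta-miR-205 had the largest fold change. It stood at 127, 83.0 and 201 CPM at 42 °C and at 68.0, 41.1 and 81.3 CPM at 37 °C. All 3 HS libraries lay above all 3 thermoneutral libraries, with the closest pair, 83.0 and 81.3 CPM, again less than 1 read apart. It rested on 38 reads in the HS libraries together and 22 in the thermoneutral ones. Its log2 fold change was 0.96 (standard error 0.68, 95% interval -0.52 to 2.44) and fell short of a call (limma adjusted p = 0.53). Per 1000000 reads other than bta-miR-1246 its values were 258, 95.7 and 342 at 42 °C against 169, 93.2 and 156 at 37 °C, which overlap.

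bta-miR-375 had 231, 481 and 258 CPM in HS replicates A, B and C and 136, 499 and 266 CPM at 37 °C. Replicate B was the highest library at both temperatures and replicate A the lowest, and the groups overlapped. Its log2 fold change was 0.21 (standard error 0.59, 95% interval -1.06 to 1.48, adjusted p = 0.89, limma).

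Of the 7 members tested, none was called between temperatures, a call being at least 2-fold with an adjusted p below 0.05, and 0 had an unadjusted p under 0.05 (limma). Over all 251 miRNAs tested, 6 or 2.39% were called, so a share of 0 of 7 members is near the background. edgeR on the recovered reads called 0 of 7 members and 4.38% of all miRNAs, and DESeq2 called 0 of 7 and 9.19% of the 185 miRNAs to which it gave an adjusted p. Both tools gave 0 members an unadjusted p under 0.05. Of the members, 2 lay wholly above at 42 °C, where 9.96% of all miRNAs did, and 0 lay wholly below, where 14.3% did. The pair above was named after its values were seen. The median log2 fold change of the 7 members was 0.19, with 5 above 0, beside -0.01 over all 251 miRNAs, with 123 above 0.

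Other scalings shifted all miRNAs, and the signs of the members with them. After every library was set to sum to 1000000, all 251 miRNAs had a median log2 fold change of -0.54, and the members one of -0.49, with only bta-miR-205 (0.34) above 0. With bta-miR-1246 left out of the sum, the medians were -0.46 for all miRNAs and -0.29 for the members, again with bta-miR-205 (0.57) alone above 0. Relative to the median of all miRNAs, 5 members were higher and 2, bta-miR-200c and bta-miR-141, lower on each of the 3 scales. Apart from the added 10, these scales differ only by a factor per library, so this agreement was fixed in advance. In edgeR and DESeq2, bta-miR-141 lay above the median of all miRNAs instead (0.13 against 0.050, and 0.11 against 0.018). On each of the 3 scales, 0 of the 7 passed the test. Over all miRNAs, 4 were called higher and 2 lower on the deposited scale, against 4 and 16 with the sum of 1000000, and 4 and 10 without bta-miR-1246.

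**Figure D2:**
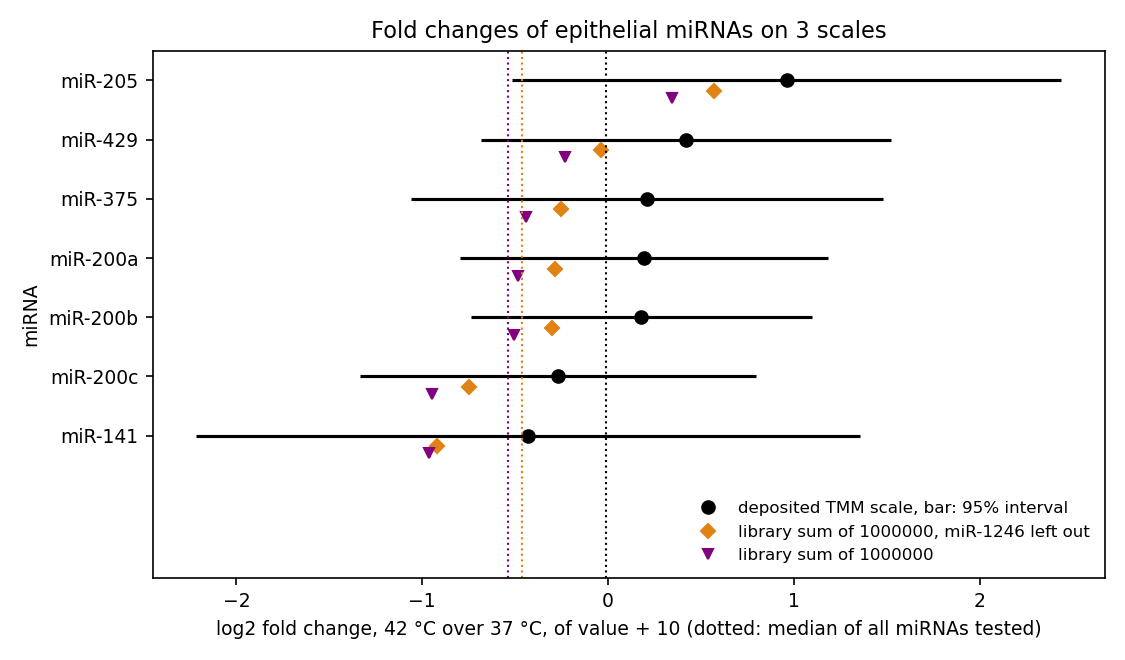
log2 fold changes (42 °C over 37 °C) of the 7 members, of value + 10. Black points with 95% intervals are on the deposited scale, diamonds and triangles are 2 other scalings, and dotted lines give the median of all 251 miRNAs on each scale; all 7 black intervals include 0.

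The family summed to 3285, 2275 and 444 reads in HS replicates A, B and C and to 722, 3359 and 2117 reads at 37 °C. Per 1000000 miRNA reads other than bta-miR-1246, this was 52928, 14519 and 21678 at 42 °C, against 30423, 44715 and 29999 at 37 °C. On this scale the HS libraries held both the highest and the lowest family share. Means were 29708 ± 20425 at 42 °C and 35046 ± 8377 at 37 °C (SD, n = 3 each). For replicate A at 42 °C the 95% Wilson interval ran from 51194 to 54717, and for replicate B from 13939 to 15124, so the intervals of the highest and the lowest library did not overlap. Such intervals cover counting error only. In the summed deposited values the order of the groups turned, with 17150 ± 7761 CPM at 42 °C and 15884 ± 3733 CPM at 37 °C (SD, n = 3 each).

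Per 1000000 reads other than bta-miR-1246, replicate B at 42 °C had the lowest family share. In it, bta-miR-451 and bta-miR-486 of red blood cells and bta-miR-122 of liver together took 31.2% of the reads other than bta-miR-1246. In the other 5 libraries they took between 4.93 and 14.0%. With these reads also left out, a denominator chosen after seeing the data, the family stood at 55674, 21119 and 22972 per 1000000 at 42 °C and at 32881, 49377 and 34879 at 37 °C. Replicate B at 42 °C remained the lowest library, but other scales changed which one was lowest. Over all miRNA reads it was replicate C at 42 °C, with 6117 per 1000000 against 10637 in replicate B. In summed deposited values it was replicate A at 37 °C (12279 CPM). Without replicate B at 42 °C, the difference between temperatures on the first denominator was 2257 per 1000000, against -5338 with it, and without replicate A at 42 °C it was -16947. None of these differences was tested.

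Within the family, bta-miR-200b took 46.8, 55.6 and 64.2% of the family reads in HS libraries, against 46.7, 50.3 and 54.1% in thermoneutral libraries. bta-miR-200c took 37.8, 26.5 and 23.0% at 42 °C and 41.3, 36.1 and 29.8% at 37 °C. The groups overlapped for each of the 5 members. bta-miR-200a held between 9.70 and 15.1% in all 6 libraries, while bta-miR-429 held 0.834 to 2.25% and bta-miR-141 0.225 to 1.46%. The order of the leading members, bta-miR-200b, bta-miR-200c and bta-miR-200a, was the same in every library.

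**Figure D3:**
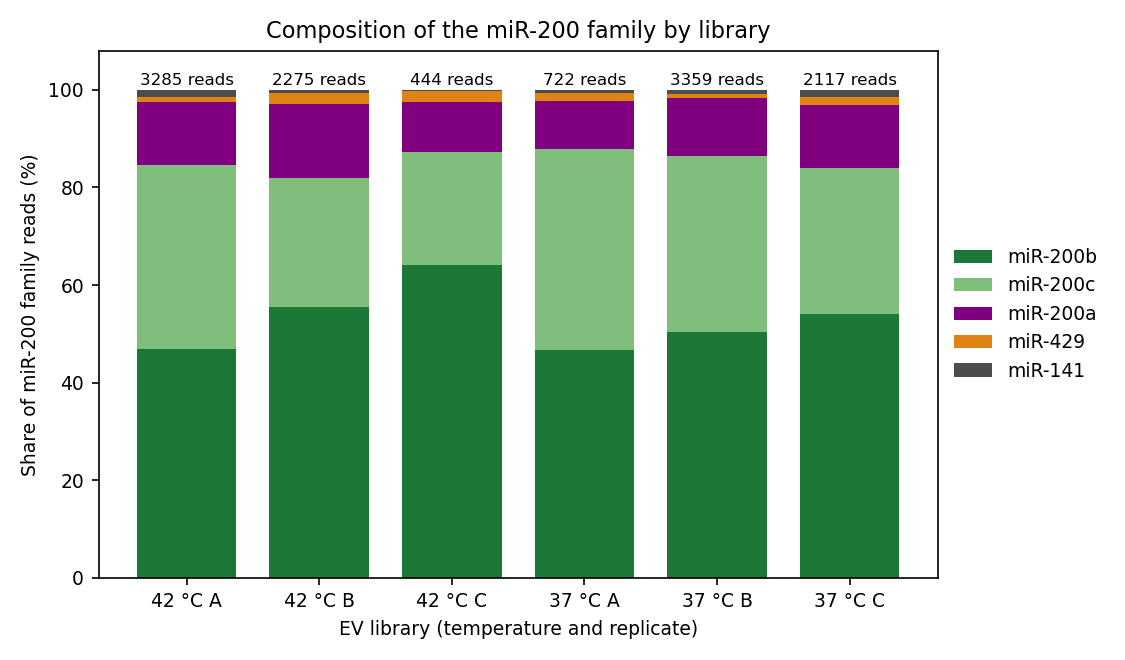
Share of the miR-200 family reads taken by each of the 5 family members (%) in the 3 libraries at 42 °C and the 3 at 37 °C, with the family reads above each bar. bta-miR-200b is the largest part of every bar, from 46.7 to 64.2%.

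By cluster, bta-miR-200c and bta-miR-141 together took 29.9 ± 8.33% of the family reads at 42 °C and 36.7 ± 5.35% at 37 °C (SD, n = 3 each), and the other cluster took the rest. By seed, bta-miR-200a and bta-miR-141 took 13.6 ± 2.70% at 42 °C and 12.5 ± 2.00% at 37 °C (SD, n = 3 each). In percentage points, the share by seed had the smaller SD at both temperatures. Its mean was also the smaller, so this does not rank the groupings by relative spread. Both groupings overlapped between temperatures.

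A ratio of reads within a library does not depend on how that library was scaled. bta-miR-200b over its cluster mate bta-miR-200a was 3.63, 3.69 and 6.20 in HS replicates A, B and C, against 4.81, 4.22 and 4.20 at 37 °C. Over bta-miR-429, the third member of that cluster, it was 42.7, 25.8 and 28.5 at 42 °C, against 28.1, 60.4 and 31.8 at 37 °C. Neither ratio parted the temperatures. The lowest bound of the exact 95% intervals of the ratio to bta-miR-429 was 15.3, in replicate C at 42 °C with 10 reads of bta-miR-429. In the other cluster, bta-miR-200c over bta-miR-141 was 27.0, 35.4 and 102 at 42 °C, against 59.6, 46.7 and 20.4 at 37 °C. The value of 102 rests on 1 read of bta-miR-141, with an exact 95% interval from 17.9 to 4068.

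Across the clusters, bta-miR-200b over bta-miR-200c was 1.24, 2.10 and 2.79 in HS replicates A, B and C, against 1.13, 1.39 and 1.82 at 37 °C. It was above 1 in each library, though the interval of replicate A at 37 °C (0.965 to 1.33) included 1. At 42 °C the exact 95% intervals of replicate A (1.15 to 1.33) and replicate B (1.90 to 2.32) did not overlap, and neither did those of replicates B (1.29 to 1.50) and C (1.65 to 2.00) at 37 °C. The replicates of a group thus differed in this ratio by more than counting error, and the groups overlapped. Mature miRNAs of the family with the same seed are close in sequence, and how reads that match more than 1 of them were counted was not given in the sources used here. Levels of bta-miR-200b against bta-miR-200c and bta-miR-429, and of bta-miR-200a against bta-miR-141, are therefore uncertain to that extent.

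**Figure D4:**
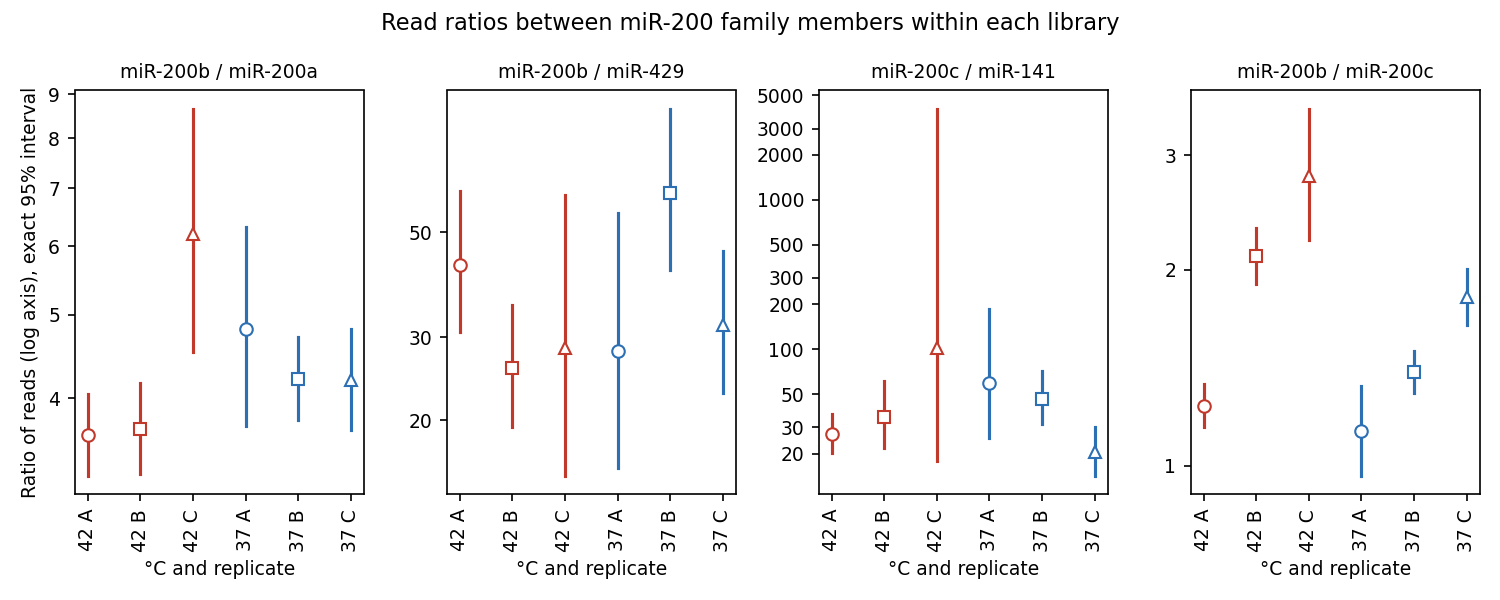
Ratios of reads between family members within each library (log axes), with exact 95% intervals, for 42 °C in red left of 37 °C in blue. The bta-miR-200b to bta-miR-200c ratio runs from 1.24 to 2.79 at 42 °C and from 1.13 to 1.82 at 37 °C.

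In the spread between replicates the members differed widely. The SD within temperature groups, in log2 units, was 0.24 for bta-miR-429, 0.41 for bta-miR-200b, 0.52 for bta-miR-205 and 0.60 for bta-miR-200a. It was 0.72 for bta-miR-200c, 0.75 for bta-miR-375 and 1.25 for bta-miR-141. The median over all 251 miRNAs was 0.87, so 6 of the 7 members lay below it and bta-miR-141 above it. That median spans miRNAs of all levels, so it does not compare the members with miRNAs of like level. The low SD of bta-miR-429 holds for the deposited scale and rests on few reads, with 36, 49 and 10 in HS replicates A, B and C. Its HS values were 286, 271 and 287 CPM as deposited. On the scale of reads other than bta-miR-1246 used above, they were 580, 313 and 488. Its place as the member with the lowest spread is therefore uncertain.

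**Figure D5:**
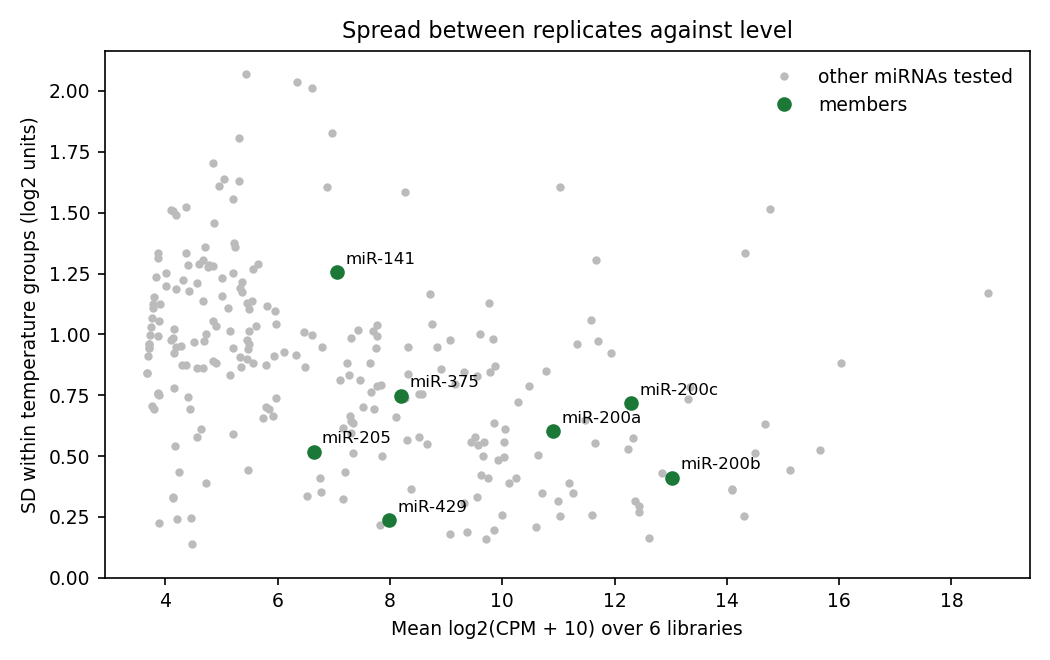
SD within temperature groups (log2 units) against the mean log2(CPM + 10) over 6 libraries, with the 7 members in green among all 251 miRNAs tested. On the deposited scale, bta-miR-141 (1.25) lies highest of the members and bta-miR-429 (0.24) lowest.

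The 6 further epithelial miRNAs of the list, bta-miR-182, bta-miR-183, bta-miR-96, bta-miR-31, bta-miR-192 and bta-miR-194, were all tested. None passed the test in either direction, and 1 had an unadjusted p under 0.05, as did 44 of all 251 miRNAs (limma). edgeR and DESeq2 called 0 of them, with 0 at an unadjusted p under 0.05, and DESeq2 gave 1 of them no adjusted p. Their median log2 fold change was 0.12, within a range of -1.72 to 0.79. The most abundant, bta-miR-192, which is typical of gut, liver and kidney, stood at 1582, 2246 and 2728 CPM at 42 °C and at 11667, 605 and 1153 CPM at 37 °C, with replicate A at 37 °C far above the rest. bta-miR-182, next in level over both temperatures, stood at 1820, 802 and 632 CPM at 42 °C and at 1088, 958 and 621 CPM at 37 °C. bta-miR-183 stood at 986, 1129 and 1177 CPM at 42 °C and at 561, 605 and 724 CPM at 37 °C, with all HS libraries above all thermoneutral ones, as for 9.96% of all miRNAs (limma adjusted p = 0.32 for a log2 fold change of 0.79, standard error 0.40). Both it and bta-miR-31 were singled out after their values were seen. bta-miR-31 stood at 207, 22.1 and 86.2 CPM at 42 °C and at 306, 288 and 244 CPM at 37 °C, with all HS libraries below all thermoneutral ones, as for 14.3% of all miRNAs (limma adjusted p = 0.23 for a log2 fold change of -1.72, standard error 0.72).

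Likeness of pattern was measured by Pearson's r of log2(CPM + 10) over the 6 libraries, which share their scaling and temperature between all miRNAs, so r is a description. Of the 244 miRNAs tested that are no members, the nearest to bta-miR-200b were bta-let-7a-5p (r = 0.85), bta-let-7c (0.81) and bta-miR-345-3p (0.80). The nearest to bta-miR-205 were bta-miR-16b (r = 0.97), bta-miR-206 (0.97) and bta-miR-204 (0.96). The nearest to bta-miR-375 were bta-miR-532 (r = 0.93), bta-miR-652 (0.93) and bta-miR-433 (0.84). Among the members themselves, r was 0.87 between bta-miR-200b and bta-miR-200a and 0.82 between bta-miR-200c and bta-miR-141. It was 0.13 between bta-miR-200b and bta-miR-429 and 0.08 between bta-miR-200a and bta-miR-429, which are also cluster mates. Pairs across the clusters ran from -0.33 for bta-miR-429 and bta-miR-200c to 0.84 for bta-miR-200a and bta-miR-141. In between were -0.03 for bta-miR-429 and bta-miR-141 and 0.60 for bta-miR-200b and bta-miR-141. bta-miR-200c had 0.66 with bta-miR-200b and 0.75 with bta-miR-200a. bta-miR-205 belongs to neither cluster, and its r with bta-miR-429 was 0.84.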

How the data were processed

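Bovine EV small RNA libraries, 3 at 42 °C and 3 at 37 °C, were analysed, with groups taken from the sample titles. Trimming, annotation with miRBase release 22 and TMM normalization were done by the authors in CLC Genomics Workbench 21. The deposited values are a signal of 0 or above, called TMM-adjusted CPM, and all 6 columns were used. The submitters' processing notes also name bcl2fastq, Bowtie2 2.2.2 and DESeq2. Dividing each library by its smallest value above 0 gave whole numbers, within 0.01, for 100% of values, and these were taken as reads.

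limma 3.58.1 (R 4.3.3) was fitted to log2(CPM + 10) for 251 miRNAs that averaged 10 CPM or more in either group, with the trend option, without a block, and with p-values adjusted by Benjamini-Hochberg. Fold changes refer to this log scale and understate the change of low miRNAs. The recovered reads were also tested with edgeR 4.0.16, which called 11 miRNAs, and DESeq2 1.42.0, which called 17. Other alternatives covered pseudocount, filter, scaling, block, trend and each library left out.

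Named are all members, the most abundant miRNAs of marker lists, and the 3 most alike miRNAs of 3 members; other list members were named after their values were seen. Members and lists were chosen with earlier results of these data known. Each replicate was a pool of 2 animals, so p-values reflect the variation among pools. Both temperatures drew on the same oviducts, but the letters are not tied to animals, so libraries were not paired. No label gives a batch. For 3 libraries against 3, an exact permutation test cannot go below 0.1, and none was run.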

Additional observations from a re-analysis of the deposited data

How the results depend on the processing

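The count of members called was 0 in all 16 alternatives, and bta-miR-205 kept its sign in all of them. The signs of the other members, none of them called, turned in some. After every library was set to sum to 1000000, log2 fold changes were -0.49 for bta-miR-200a, -0.50 for bta-miR-200b, -0.23 for bta-miR-429 and -0.44 for bta-miR-375, and with bta-miR-1246 left out of the sum they were -0.29, -0.30, -0.038 and -0.26. For bta-miR-141 the value was 0.13 in edgeR and 0.11 in DESeq2. Leaving out each library in turn gave -0.17 to 0.50 for bta-miR-200a, -0.052 to 0.35 for bta-miR-200b, -0.24 to 0.66 for bta-miR-375, -0.82 to 0.055 for bta-miR-200c and -1.28 to 0.35 for bta-miR-141. The family difference per 1000000 reads was -5338, with -16947 to 2257 when a library was left out, -3966 over all miRNA reads, -5791 without the reads of the red blood cell and liver miRNAs, and 1266 in deposited CPM. Over all miRNAs, 6 were called, against 10 with a mean of at least 50 CPM, 20 and 14 on these scales, 10 without the trend, 11 in edgeR and 17 in DESeq2, and between 1 (without replicate B at 37 °C) and 9 with a library left out. Replicate letters were not taken as a pairing, since the sources do not tie them to the oviducts that both temperatures share. Deviations of same-lettered libraries correlated at -0.06, 0.03 and -0.06, and no library correlated best with the one of its own letter. Across all pairs of a 42 °C and a 37 °C library, though, the correlations ran only from -0.11 to 0.16. Each deviation was taken from a mean of 3 libraries, so these values cannot decide whether the letters pair. With the replicate block, 15 miRNAs were called, against 6 without it, and 0 members in either. Depth limits bta-miR-141, bta-miR-205 and bta-miR-429 most, with 64, 38 and 95 HS reads and 62, 22 and 76 thermoneutral reads in all.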
